A study of Mus musculus with 3 samples.

Results

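The solute carrier family 25 (SLC25) holds the carriers of the inner mitochondrial membrane, and its RNA is described here in mouse macrophages. Members were the protein-coding genes whose symbol is Slc25a followed by a number. There were 47 of them among 22028 annotated protein-coding genes, and none was left out for a low value. The rule used no measured value.

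SLC25 proteins are built from repeats of a transmembrane unit and exchange metabolites, nucleotides, cofactors and ions between the cytosol and the mitochondrial matrix. The ADP/ATP carriers and the phosphate carrier supply ATP synthase and release its product, while the citrate, dicarboxylate and oxoglutarate carriers join the citric acid cycle to cytosolic synthesis. Slc25a17 is known as a peroxisomal carrier and Slc25a46 as an outer membrane protein, so the family name covers more than the inner membrane.

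The cells were macrophages grown from bone marrow of C57BL/6J mice, with no other allele given in the labels. They received Lipid A, the part of bacterial lipopolysaccharide that activates Toll-like receptor signalling, at 100 ng/ml for 12 hours. After a further 12 hours without it they were given 100 ng/ml again for 40 minutes. Ribosomal RNA was removed from RNA of the cytosolic fraction, and 3 libraries were sequenced, labelled as biological replicates 1, 2 and 3; whether the cultures came from different animals is not given in the sources used here, so the spread may be partly technical. All 3 libraries form 1 group and no untreated cells were analysed here, so every value is a level after this treatment and not a response to it. With 3 libraries an exact two-sided sign-flip test cannot reach a p below 0.25, and no p is given.

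The libraries held 38197192, 46327891 and 38685666 expected counts on genes. All 10 macrophage markers were at 1 TPM (a level per transcript length, scaled so that every table has the same total) or more in every library, with a sum of 4184 to 5771 TPM. Of the 7 erythroid markers 0 reached that level, 4 had 0 TPM in every library and the sum of all 7 was 0.27 to 0.53 TPM. T cell, mast cell, dendritic and stromal markers also had 0 at that level. Neutrophil markers summed to 6.91 to 9.45 TPM, with 2 of 5 detected (S100a8 and S100a9), and 1 of 4 B cell markers was detected (Cd79b). Replicate 2 stood apart in nuclear RNA: Malat1 and Neat1 together had 1533, 501 and 1814 TPM in replicates 1, 2 and 3. In bulk RNA, fewer cells of a type and less RNA per cell cannot be told apart.

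A member was called detected at 1 TPM or more in all 3 libraries. This held for 32 of the 47 members, against 41.4% of all protein-coding genes. Of the detected members 12 averaged 10 TPM or more and 20 averaged between 1 and 10 TPM. The median level over all 47 members, as mean log2(TPM + 1), was 2.18, against 0.23 over all protein-coding genes. Among detected genes alone the median was 3.07 for members, against 3.25 for all detected protein-coding genes. The family summed to 662, 519 and 565 TPM in replicates 1, 2 and 3 (582 ± 73.1, SD, n = 3). Nuclear protein-coding genes hold only part of the TPM total, so the same sum was also set against them, where it was 0.199%, 0.185% and 0.204% of their TPM (0.196% ± 0.00988, SD, n = 3).

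A few carriers held most of this RNA. The leading member, Slc25a5, made up 25.9% ± 1.03 of the family's TPM, and the first 2 members together 42.2% ± 1.39. The first 5 held 60.7% ± 0.213 and the first 10 held 78.3% ± 0.256 (SD, n = 3). By role, the adenine nucleotide carriers took 30.3% of the family's TPM, the phosphate carrier 16.3%, and the citrate, dicarboxylate and oxoacid carriers 16.2%. Glutathione carriers took 6.53%, aspartate and glutamate carriers 6.38% and cofactor carriers 6.18%. The iron carriers took 2.36% and the pyrimidine nucleotide carriers 1.92%.

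**Figure D1:**
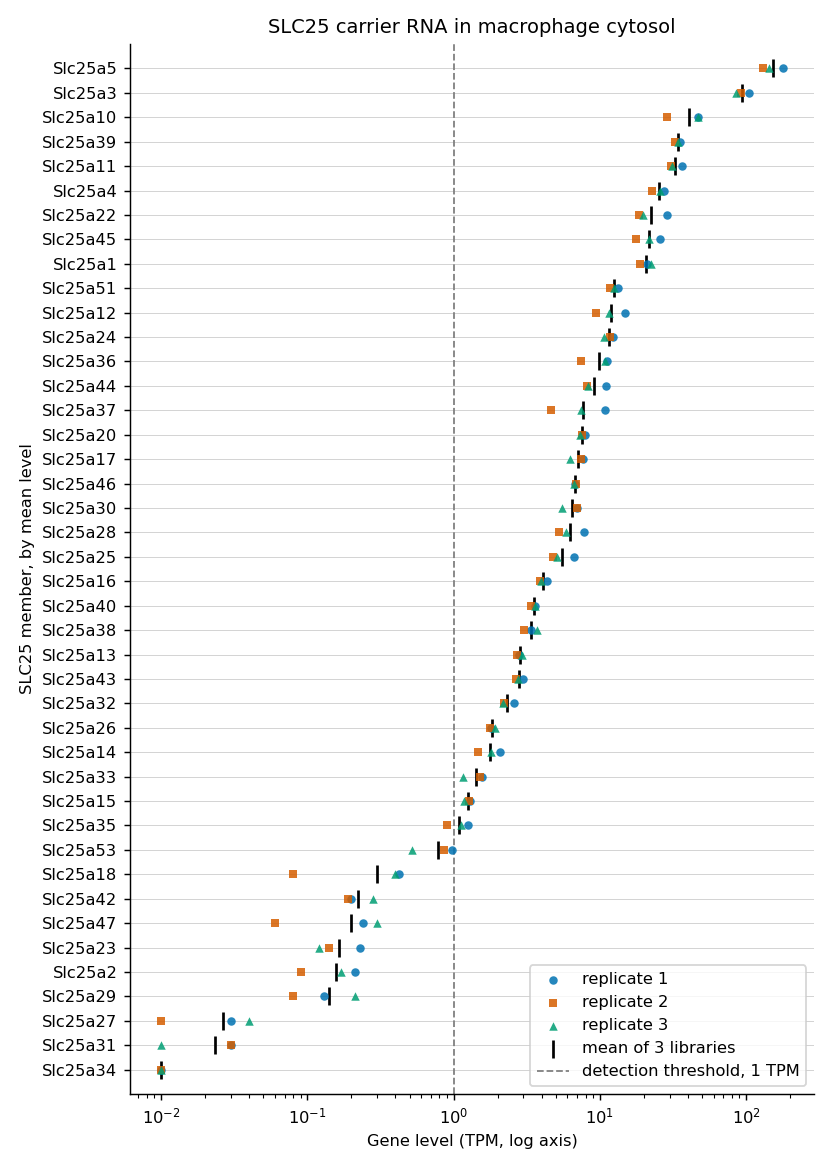
Level of 42 members that had a count, 1 row per gene ordered by mean, with the TPM of each library as a point on a log axis, the mean as a bar and the 1 TPM threshold as a dashed line. Slc25a5 and Slc25a3 stand above the others in every library, and the square of replicate 2 lies left of the other libraries for Slc25a37 and Slc25a10.

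Of the adenine nucleotide carriers, Slc25a5 and Slc25a4 were detected. Slc25a5 (ENSMUSG00000016319.3, mm10 chrX:36795651-36798807, plus strand), the ADP/ATP carrier of growing cells, had 179.7, 131 and 144 TPM in replicates 1, 2 and 3. Slc25a4 (ENSMUSG00000031633.4, mm10 chr8:46206797-46211284, minus strand), the form abundant in heart and muscle, had 27.4, 22.6 and 26.0 TPM. The ranges of these genes did not overlap, and Slc25a5 was 5.99-fold above Slc25a4 by mean TPM. As log2(TPM + 1), where the added 1 shrinks ratios between low levels, their ratio was 2.53 ± 0.13 (SD, n = 3). Slc25a31, known from the testis, had 3, 4 and 1 counts, which is 0.03, 0.03 and 0.01 TPM.

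The first coding exons of Slc25a5 and Slc25a4 are shown, since reads can be assigned to a paralogue only by bases that differ (mm10, GENCODE M21 transcripts, 5′ to 3′; Slc25a5 chrX:36795731-36795841, plus strand; Slc25a4 chr8:46210812-46210922, minus strand). Capitals mark the 25 of 111 bases that differ.
Slc25a5: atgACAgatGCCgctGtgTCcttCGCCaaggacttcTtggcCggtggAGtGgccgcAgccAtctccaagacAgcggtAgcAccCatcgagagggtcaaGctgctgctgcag
Slc25a4: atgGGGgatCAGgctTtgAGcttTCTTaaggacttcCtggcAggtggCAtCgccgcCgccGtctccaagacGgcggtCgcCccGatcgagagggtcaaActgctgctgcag
Over the whole coding sequence of 894 bases they matched at 77.4% of positions, and their longest shared run was 20 bases. Slc25a31 matched Slc25a5 at 61.3% of alignment columns. The pseudogene Slc25a5-ps had 0 counts in all 3 libraries.

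The phosphate carrier was second. Slc25a3 (mm10 chr10:91116574-91124059, minus strand) brings in phosphate for ATP synthesis and can also carry copper. It had 104, 92.9 and 85.9 TPM, below Slc25a5 in all 3 libraries and above every member after it. The gene has 2 alternative exons that are used one at a time: exon A belongs to the form of heart and skeletal muscle, and exon B to the form of other tissues. They are shown because they tell which form these cells made (mm10, GENCODE M21; exon A chr10:91122207-91122331 and exon B chr10:91121922-91122043, minus strand, 5′ to 3′). Capitals mark bases that differ between the exons or have no partner in their alignment.
exon A: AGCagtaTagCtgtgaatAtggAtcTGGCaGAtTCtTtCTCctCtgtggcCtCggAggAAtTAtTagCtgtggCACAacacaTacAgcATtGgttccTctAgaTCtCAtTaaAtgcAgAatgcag
exon B: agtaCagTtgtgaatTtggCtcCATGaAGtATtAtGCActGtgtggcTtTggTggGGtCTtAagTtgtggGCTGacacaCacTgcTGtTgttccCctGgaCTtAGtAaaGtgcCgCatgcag
The exons, 125 and 122 bases long, matched at 77 of 125 alignment columns, or 61.6%. Transcripts with exon A had 1.01, 0.07 and 0.14 TPM in replicates 1, 2 and 3. Transcripts with exon B had 94.7, 90.3 and 77.8 TPM. Exon B was thus in 98.9%, 99.9% and 99.8% of the TPM on transcripts with either exon (99.6% ± 0.537, SD, n = 3).

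Citric acid cycle intermediates were served by several carriers. Slc25a10, which exchanges malate or succinate for phosphate, came next with 47.1, 28.7 and 47.0 TPM. Replicate 2 lay below the other libraries for this gene. Slc25a11, the oxoglutarate/malate carrier of the malate-aspartate shuttle, had 36.5, 30.8 and 31.1 TPM. Slc25a10 was above Slc25a11 in 2 of 3 libraries, with a log2 ratio of 0.28 ± 0.35 (SD, n = 3), so the data gave no single order for them. Slc25a1, the citrate carrier that feeds cytosolic acetyl-CoA, had 21.1, 18.8 and 22.4 TPM. Slc25a21, the oxoadipate carrier, had no count, which with a limit of 3 counts allows up to 0.0419, 0.0287 and 0.0350 TPM. The read-based tables listed it at 0.0256, 0.0022 and 0.0178 TPM; on the scale of nuclear protein-coding genes these are 0.210, 0.017 and 0.166 TPM. Such limits and all count-based precision cover counting error only.

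At gene level, aspartate and glutamate carriers split by paralogue. Slc25a22, a glutamate carrier, had 28.9, 18.5 and 19.7 TPM, against 0.42, 0.08 and 0.40 TPM for its relative Slc25a18. In the malate-aspartate shuttle, Slc25a13 (citrin, the form prominent in liver) had 2.81, 2.73 and 2.93 TPM. Slc25a12 (aralar, the form prominent in brain and muscle) had 14.9, 9.34 and 11.6 TPM. The Slc25a13/Slc25a12 log2 ratio by gene TPM was -1.74 ± 0.30 (SD, n = 3), with Slc25a13 lower in 3 of 3 libraries. On the main coding transcripts the order by TPM was the reverse in every library, though only narrowly in replicate 1. Slc25a13-201 had 2.11, 2.29 and 2.39 TPM, against 2.05, 1.74 and 1.65 TPM for Slc25a12-206. Read-based TPM gave the same coding order, with 0.75, 0.91 and 0.81 against 0.65, 0.60 and 0.54. Only a minor share of the Slc25a12 TPM lay on its coding transcript, as described with the transcripts. The coding order thus depends on how reads were split between the Slc25a12 transcripts.

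Of the glutathione carriers, Slc25a39, required for glutathione in the matrix, had 35.3, 32.9 and 34.5 TPM, and its relative Slc25a40 had 3.60, 3.37 and 3.62 TPM. Their log2 ratio of 2.96 ± 0.02 (SD, n = 3) had the smallest spread of the 14 pairs of related carriers.

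Cofactor carriers were mostly present at modest levels, with 6 of 7 detected. Slc25a51, the NAD+ carrier, had 13.2, 11.7 and 12.5 TPM. Peroxisomal Slc25a17 averaged 7.13 TPM and Slc25a16, linked to coenzyme A, averaged 4.06 TPM. Slc25a32 (folate and FAD) averaged 2.32 TPM and Slc25a26 (S-adenosylmethionine) 1.83 TPM. Slc25a42, another coenzyme A carrier, had 0.20, 0.19 and 0.28 TPM and was below Slc25a16 in 3 of 3 libraries.

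Among the calcium-regulated ATP-Mg/phosphate carriers, Slc25a24 had 12.3, 11.8 and 10.7 TPM and Slc25a25 had 6.67, 4.77 and 5.09 TPM. Slc25a24 was higher in 3 of 3 libraries, with a log2 ratio of 0.96 ± 0.18 (SD, n = 3). Slc25a23 had 0.23, 0.14 and 0.12 TPM, and Slc25a41 and Slc25a54 had no count, which allows up to 0.0555 and 0.0395 TPM in replicate 1, where the limit was widest. Of the pyrimidine nucleotide carriers, Slc25a36 had 11.2, 7.46 and 10.8 TPM and Slc25a33 had 1.57, 1.52 and 1.16 TPM. Their ranges did not overlap, and the log2 ratio was 2.15 ± 0.36 (SD, n = 3).

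Carriers of other amino acids and of carnitine were led by Slc25a44, a branched-chain amino acid carrier, with 11.0, 8.18 and 8.34 TPM. Slc25a20, which carries acylcarnitine for fatty acid oxidation, followed with 7.90, 7.55 and 7.29 TPM. Slc25a38, the glycine carrier of haem synthesis, averaged 3.38 TPM and Slc25a15, the ornithine carrier of the urea cycle, 1.25 TPM. Slc25a2, a relative of Slc25a15, averaged 0.16 TPM, Slc25a29, a basic amino acid carrier, averaged 0.14 TPM, and Slc25a48 had no count. In the uncoupling-protein-like group, Slc25a30 averaged 6.50 TPM, Slc25a14 1.79 TPM and Slc25a27 0.03 TPM. Outer-membrane Slc25a46 had 6.76, 6.89 and 6.64 TPM.

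The 6 members with no role assigned here held 4.55% of the family's TPM, most of it Slc25a45, with 25.7, 17.6 and 21.7 TPM. Slc25a45 thus ranked eighth of the 47. Slc25a43 averaged 2.79 TPM. Slc25a35 had 1.26, 0.90 and 1.13 TPM and just missed detection through replicate 2, while Slc25a53, with 0.98, 0.86 and 0.52 TPM, was below 1 TPM throughout. Slc25a47 and Slc25a34 averaged 0.20 and 0.01 TPM. Slc25a35 shares 1151 exonic bases with Rangrf on the other strand, and the strand setting of the counting is not given in the sources used here, so reads on those bases cannot be told apart from those of Rangrf. The same limit holds for 189 bases of Slc25a11 and Rnf167, for 379 bases of Slc25a25 and Naif1, and for 32 bases of Slc25a18 and Atp6v1e1, whose own level was 66.2 to 87.2 TPM.

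Both iron carriers were detected. Slc25a37 (mitoferrin 1, known from red cell precursors; mm10 chr14:69241848-69285112, minus strand) had 10.8, 4.63 and 7.46 TPM, with replicate 2 the lowest and replicate 1 the highest. Slc25a28 (mitoferrin 2, the broadly expressed form) had 7.77, 5.29 and 5.83 TPM. By gene TPM, Slc25a37 exceeded Slc25a28 in 2 of 3 libraries, and the log2 ratio was 0.19 ± 0.31 (SD, n = 3), within its spread. On the main coding transcripts alone Slc25a28 was higher in every library. Slc25a28-201 had 3.17, 3.07 and 2.00 TPM, against 2.71, 2.21 and 1.72 TPM for Slc25a37-201. Read-based TPM summed over each gene put Slc25a37 above Slc25a28 in every library, with 5.43, 2.54 and 3.67 against 2.55, 2.15 and 1.91. The order at gene level thus depended on the quantifier. The erythroid markers given above were at or near 0 in all 3 libraries.

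**Figure D2:**
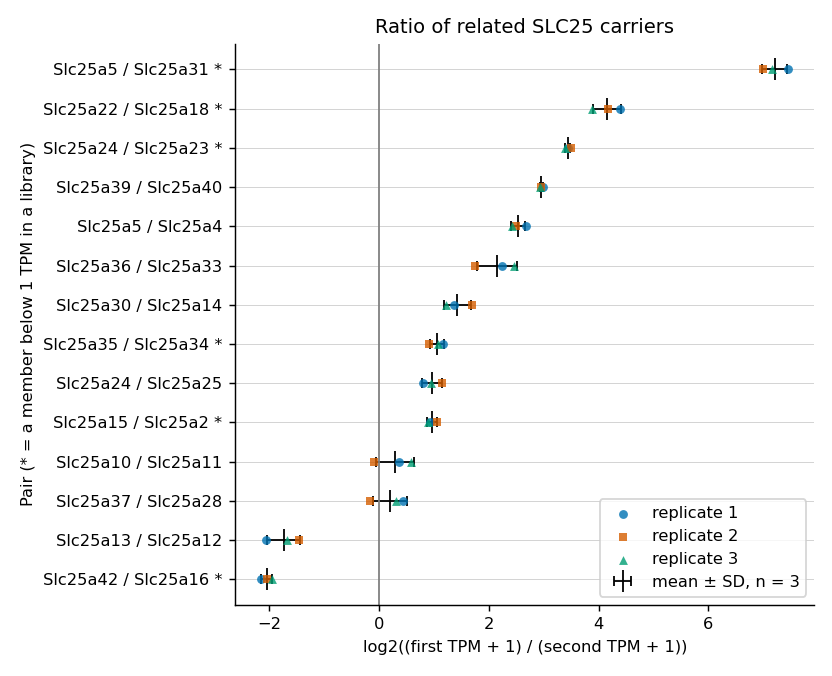
Log2 ratio of TPM + 1 for 14 pairs of related carriers, with each library as a point and the mean ± SD of 3 libraries in black; an asterisk marks pairs with at least 1 member not detected. All points lie on one side of 0 except for Slc25a10/Slc25a11 and Slc25a37/Slc25a28, where replicate 2 lies left of 0.

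Of the 14 pairs, 12 had 1 order by gene TPM in all 3 libraries, with a mean ratio over 2 SD. Both members were detected in 8 pairs, of which 6 had 1 order. Without replicate 2 all 14 pairs had 1 order. Coding sequences of the pairs matched at 49.3% (Slc25a10/Slc25a11) to 77.4% (Slc25a5/Slc25a4) of alignment columns, and no shared run exceeded 25 bases (Slc25a35/Slc25a34).

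Ordered by mean, the 32 detected members form 31 neighbour pairs. In 12 of these the order held in all 3 libraries, and in 9 the ranges did not overlap. Clear steps came after Slc25a5, Slc25a3, Slc25a11 and Slc25a1 at the upper end, and after Slc25a25, Slc25a16, Slc25a38, Slc25a43 and Slc25a32 further down. Within the run of Slc25a10, Slc25a39 and Slc25a11, and within that of Slc25a4, Slc25a22, Slc25a45 and Slc25a1, neighbours did not differ beyond their spread.

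Some members lie side by side in the genome at very different levels. Members lay on 19 chromosomes, and 4 neighbouring pairs were within 100000 bases of each other. Slc25a43 and Slc25a5 were 18448 bases apart on the X chromosome and averaged 2.79 and 152 TPM. Slc25a54 and Slc25a24 were 6461 bases apart on chromosome 3 and averaged 0 and 11.6 TPM. Slc25a41 and Slc25a23 on chromosome 17 and Slc25a29 and Slc25a47 on chromosome 12 were all at 0.20 TPM or less.

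Promoter windows of RefSeq (GRCm38.p6, 250 bases before to 50 after the start) were at hand for 36 members. The GC box GGGCGG, on either strand, was in 29 of 32 windows of 25 detected members (90.6%), against 63.5% of windows of detected protein-coding genes. It was in 9 of 14 windows of 11 members that were not detected (64.3%), against 47.8% of windows of all protein-coding genes. The sequence TATAAA, on either strand, was in 0 of the 32 windows of detected members, against 6.84% of windows of detected protein-coding genes, and in 2 of 14 windows of members not detected (14.3%), against 12.1% of windows of all protein-coding genes. Of 5 other motifs searched on either strand, the E-box CACGTG was in 21.9% of windows of detected members, against 10.6% of windows of detected protein-coding genes. CCAAT was in 43.8%, against 37.4%, and CCGGAAG in 18.8%, against 20.1%. TGACGTCA was in 6.25%, against 3.26%, and GCGCATGCG in 0 windows, against 4.06%. The background of all protein-coding genes includes detected ones, so it is not matched to members that were not detected. Several windows belong to the same gene, and a match of letters is not a bound site.

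Replicate spread was taken from expected counts scaled by the trimmed mean of M-values (TMM). The highest library was at least 1.5-fold above the lowest for 1 of 32 detected members, Slc25a37, against 7.75% of detected protein-coding genes. Its normalised counts were 2695, 1429 and 2298 in replicates 1, 2 and 3, a 1.89-fold range, with a biological coefficient of variation of 22.1%. Slc25a10 was just below the threshold, at 1.49-fold, with 4946, 3765 and 5617 normalised counts. Without replicate 2 no member was past 1.5-fold. The coefficient of variation over libraries had a median of 8.63% in detected members, against 8.89% in all detected protein-coding genes. The low library of Slc25a37 was also the library with the least Malat1 and Neat1; the part of that in this result was not tested.

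Transcript tables gave each gene's TPM by annotated transcript type. Besides protein-coding transcripts these are retained-intron transcripts, which keep an intron, transcripts marked for nonsense-mediated decay, whose reading frame ends early, and processed transcripts, which have no reading frame. Of the 32 detected members 29 have such other transcripts, and 7 of these 29 had under 80% of their TPM on protein-coding transcripts, against 25.1% of detected protein-coding genes with other transcripts. They were Slc25a12, Slc25a37, Slc25a28, Slc25a14, Slc25a22, Slc25a32 and Slc25a36. All 7 were under 80% in the read-based tables too, but the size of the share depended on the quantifier. The mean coding share of Slc25a14 was 50.9% here and 15.9% read-based, and that of Slc25a28 was 44.9% and 60.4%. Summed over the family, decay transcripts held 2.80% ± 0.0685 of TPM, against 1.75% ± 0.0195 over all nuclear protein-coding genes (SD, n = 3). Most of the family's decay TPM was on Slc25a12-207 and Slc25a22-204, which averaged 6.90 and 5.08 TPM, so the share reflects few genes.

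**Figure D3:**
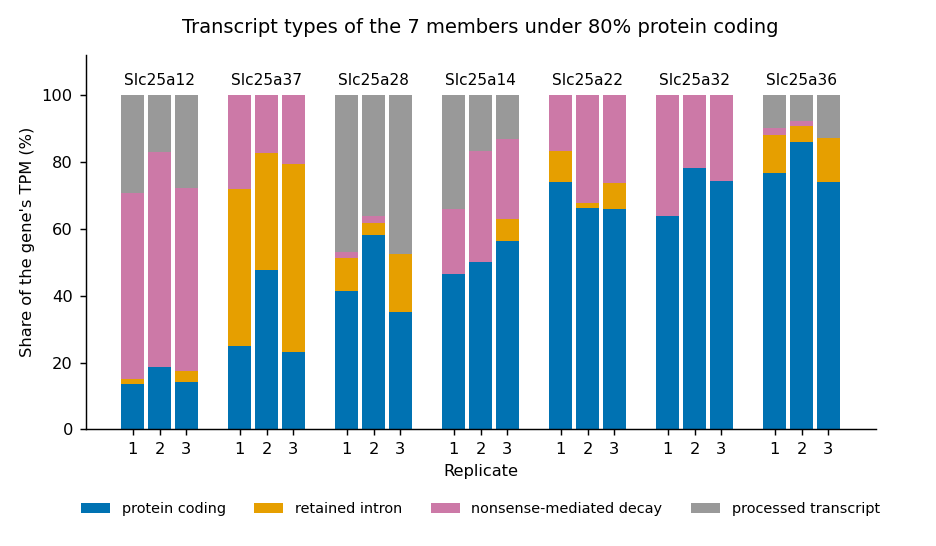
Share of TPM by annotated transcript type, in percent, for the 7 detected members with under 80% on protein-coding transcripts, with 1 bar per replicate. In Slc25a12 the decay share is between 54.8% and 64.5% in the 3 libraries, and in Slc25a37 the retained-intron share is lowest in replicate 2.

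Among detected members Slc25a12 had the lowest coding share, with 13.7%, 18.6% and 14.2% in replicates 1, 2 and 3 (15.5% ± 2.71, SD, n = 3). Its decay transcript, Slc25a12-207, had 8.31, 6.02 and 6.37 TPM. The coding transcript, Slc25a12-206, had 2.05, 1.74 and 1.65 TPM, below it in all 3 libraries. By expected counts, which are not divided by length, the difference was smaller. The coding transcript had 692, 856 and 672 of the gene's 1830, 1979 and 1729 counts, and the decay transcript had 994, 1051 and 915. The decay transcript lacks 1 internal exon of 116 bases, shown here (mm10, GENCODE M21, chr2:71333605-71333720, minus strand, 5′ to 3′).
Slc25a12 exon: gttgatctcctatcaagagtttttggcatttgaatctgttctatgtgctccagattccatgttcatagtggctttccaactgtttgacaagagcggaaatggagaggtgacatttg
A length of 116 bases is not a multiple of 3, so its loss shifts the reading frame. The transcripts also end at different places, with the coding one reaching 3627 bases further, and the tables do not tell which of these differences the reads were assigned by. The read-based tables gave the same order, with 11.4% coding and 58.2% decay on average.

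Slc25a22 divided mainly between its leading coding transcript Slc25a22-203, with 17.3, 9.21 and 9.88 TPM, and the decay transcript Slc25a22-204, with 4.37, 5.79 and 5.09 TPM. Decay transcripts made up 16.9%, 32.2% and 26.5% of the gene's TPM. One difference between the pair is an exon that starts 19 bases earlier in the decay transcript, shown in capitals with 20 bases on each side (mm10, GENCODE M21; the extension is chr7:141432140-141432158, minus strand, 5′ to 3′).
Slc25a22-204: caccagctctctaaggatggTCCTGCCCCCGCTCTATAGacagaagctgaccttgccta
Their first exons differ too. Slc25a28 had 3.66, 1.92 and 2.77 TPM on a processed transcript and 3.17, 3.07 and 2.00 TPM on its main coding transcript, so the order of these changed between libraries. Read-based TPM put the coding transcript above the processed one in every library, with 1.40, 1.63 and 0.83 against 0.74, 0.38 and 0.60.

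Most Slc25a37 signal was on transcripts that keep intron sequence. The coding share was 25.1%, 47.7% and 23.1% in replicates 1, 2 and 3. Retained-intron transcript Slc25a37-203 had 5.07, 1.61 and 4.19 TPM, and decay transcript Slc25a37-204 had 3.03, 0.81 and 1.55 TPM. Coding transcript Slc25a37-201 had 2.71, 2.21 and 1.72 TPM. Replicate 2 was thus lowest for the first and second of these but between the others for the coding transcript. The intron in question spans 1756 bases (mm10 chr14:69247638-69249393, minus strand), of which Slc25a37-203 holds all and Slc25a37-204 holds 511. Its borders are shown with 30 intron bases in capitals and 20 exon bases in lower case (GENCODE M21, 5′ to 3′; chr14:69249364-69249413 for the start and chr14:69247618-69247667 for the end).
intron start: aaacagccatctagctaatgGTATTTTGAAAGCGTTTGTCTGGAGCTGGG
intron end: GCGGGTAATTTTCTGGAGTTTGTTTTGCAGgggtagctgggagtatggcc
A read across either border comes from a transcript that kept the intron bases at that border, or from RNA not yet spliced.

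**Figure D4:**
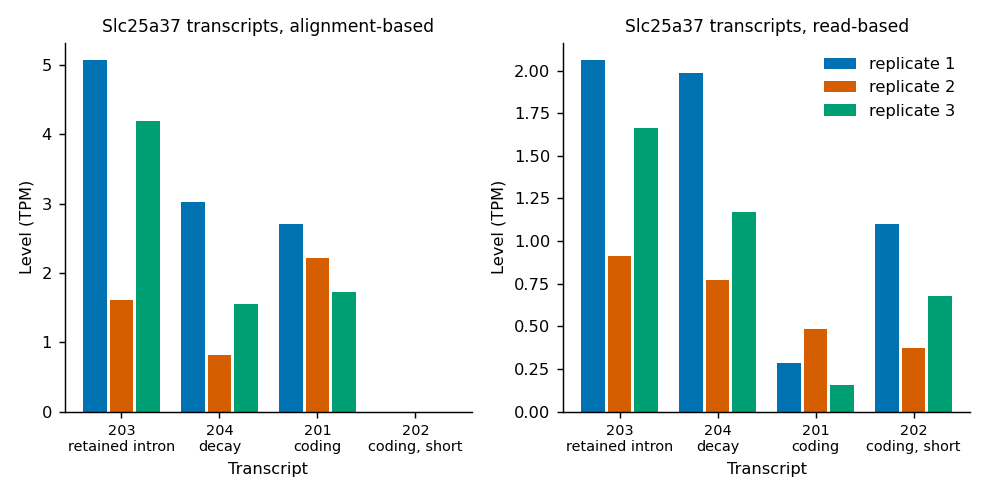
TPM of the 4 annotated Slc25a37 transcripts by replicate in the alignment-based (left) and read-based (right) tables, which have different vertical scales. Replicate 2 is lowest for transcripts 203 and 204 in both tables and is not lowest for transcript 201.

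The read-based tables put 2.06, 0.91 and 1.66 TPM on Slc25a37-203, and 0.29, 0.48 and 0.16 TPM on Slc25a37-201. They also put 1.10, 0.37 and 0.68 TPM on the short coding transcript Slc25a37-202, which had none in the alignment-based tables. The Slc25a37 exons share 381 bases with Gm31748 on the other strand, which itself had 0.51, 0.14 and 0.25 TPM.

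Retained-intron shares were mostly lowest in replicate 2, in the family and in other genes. Retained-intron transcripts held 3.34%, 1.14% and 3.72% of the family's TPM in replicates 1, 2 and 3, against 4.70%, 3.45% and 4.93% over all nuclear protein-coding genes. By expected counts the family was above that background instead, with 4.94%, 1.79% and 5.29%, against 2.94%, 1.76% and 3.13%. One long transcript, Slc25a37-203 with 5927 bases, alone had 1594, 739 and 1586 of the family's counts on such transcripts. The share by counts thus reflects few genes. Of the 12 detected members with at least 0.2 TPM on such transcripts, 12 had their lowest share in replicate 2, against 81.1% of detected protein-coding genes. With any TPM on such transcripts it was 16 of 20 members, against 76.3% of detected protein-coding genes, and the exceptions were Slc25a4, Slc25a13, Slc25a14 and Slc25a16. Slc25a40 had 14.2%, 5.03% and 20.1%, and Slc25a36 had 11.6%, 4.69% and 13.0%. In Slc25a3 the share was 7.42%, 2.37% and 8.75%. Malat1 and Neat1 were also lowest in replicate 2. The part of nuclear RNA in the shares was not tested.

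**Figure D5:**
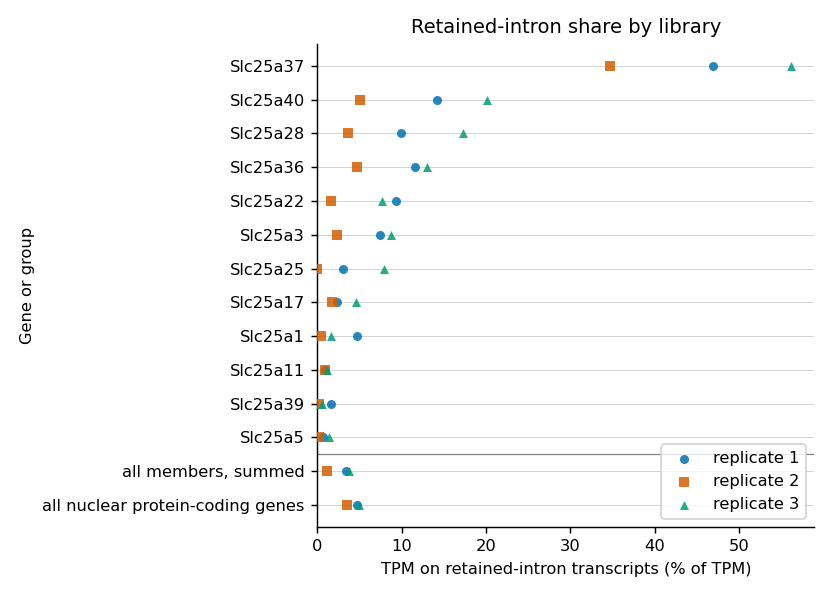
Share of TPM on retained-intron transcripts, in percent, by replicate, for the 12 detected members with at least 0.2 TPM on them, for the members summed and for all nuclear protein-coding genes. The square of replicate 2 is the lowest in every row.

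The quantifiers were compared next. After scaling both tables to nuclear protein-coding genes, 0 of 32 detected members differed over 2-fold between the gene table and the read-based table, against 0.79% of detected protein-coding genes. The log2 difference ran between -0.38 (Slc25a36) and 0.18 (Slc25a28), with a median of 0.01. Among members that were not detected the tables differed more: Slc25a18 averaged 1.00 TPM on this scale in the gene table and 2.88 TPM in the read-based table, and Slc25a53 averaged 2.63 and 4.95 TPM.

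Related genes outside the naming rule give the setting. Ucp2, an uncoupling protein of the same family, had 218, 141 and 122 TPM (160.3 ± 50.8, SD, n = 3), a range that overlaps that of Slc25a5. By TMM-scaled counts the highest library of Ucp2 was only 1.05-fold above the lowest, a narrower spread than by TPM. Ucp1 and Ucp3 were at 0.01 TPM or less. Mtch1 and Mtch2, distant outer membrane relatives, averaged 36.4 and 27.6 TPM. Of 17 other mitochondrial transport genes 16 were detected, led by the outer membrane channel Vdac2 with 74.2 ± 6.02 TPM, then Vdac3 with 48.3 ± 6.47 TPM and the pyruvate carrier subunit Mpc1 with 46.1 ± 4.92 TPM. All 10 genes for the import of carriers into mitochondria were detected, led by Timm10b with 30.0 ± 2.64 TPM.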

How the data were processed

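Each of the 3 libraries had 3 tables. Per gene, the authors deposited expected counts (estimates, not always whole), TPM and FPKM, laid out as RSEM does per the file headers. The deposited transcript tables hold estimated counts and TPM per transcript, one made by the authors from transcriptome alignments and one directly from reads in kallisto layout per the file headers. Text files beside them name mm10 and annotation M21; no aligner, quantifier version or strand setting is given in the sources used here. Left out were 26345 rows that name no gene, with 0.356%, 0.125% and 0.104% of expected counts; 0 columns of other samples were used.

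Gene levels are the deposited TPM, and ± is the SD of 3 libraries. Spread came from expected counts rounded to whole numbers in an edgeR 4.0.16 fit with an intercept only (R 4.3.3, TMM; 12752 genes, common biological coefficient of variation 0.189), checked on simulated data, with DESeq2 1.42.0 size factors as an alternative. Normalised counts are unrounded expected counts divided by TMM factors. Library pairs differed beyond sampling noise (chi-square per degree of freedom 39.3 to 97.2 over genes with 10 counts or more), so none was counted as a duplicate. All members and all genes of the pairs, lists and markers could be named; overlapping genes were named after their values were seen. The values of 1 member are not reported here, though counts and sums over the family include it. Members, pairs and lists were chosen with earlier results of these data known. Sequences came from GENCODE M21 transcripts and were aligned end to end with Biopython 1.88.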

Additional observations from a re-analysis of the deposited data

How the results depend on the processing

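Slc25a37 held its place past 1.5-fold under DESeq2 size factors, but 4 members passed with TPM not scaled further, 4 with genes of at least 10 expected counts in place of 1 TPM, 4 with read-based counts, and 0 at 2-fold. With read-based counts the others were Slc25a30, Slc25a33 and Slc25a32; with TPM they were Slc25a10, Slc25a12 and Slc25a22; with the count minimum they were Slc25a18, Slc25a29 and Slc25a42, all below 1 TPM. Leaving out 1 replicate gave 0 to 1, the 0 without replicate 2. Detected members were 20 at a threshold of 5 TPM and 32 to 33 with a replicate left out. The median level was 1.86 with a pseudocount of 0.1, 2.75 for FPKM, 3.69 for TPM rescaled over nuclear protein-coding genes, 1.27 for read-based TPM and 3.07 for detected members only. By expected counts the family took 0.186% of nuclear protein-coding counts (TPM with a replicate left out, 0.192% to 0.202%). Pairs with 1 order were 6 where both were detected. Members under 80% coding were 11 in the read-based tables and 3 below a cutoff of 50%. Replicate 2's median deviation from the other libraries was 0.0021 in TPM, and turned to -0.0171 with TMM counts and -0.0277 with read-based TPM (log2). The retained-intron share by expected counts, an alternative chosen after seeing the data, was 4.94% in replicate 1 and 5.29% in replicate 3, and read-based 5.31% in replicate 3; replicate 2 stayed lowest. On that scale all nuclear protein-coding genes had 2.94% and 3.13%, so the family was above them by counts and below them by TPM. Slc25a37-203 alone had 1594 and 1586 of the family's retained-intron counts in replicates 1 and 3. The cause was not tested. Of the 14 pair ratios 0 reversed, 9 moved beyond their SD with a pseudocount of 0.1, 9 after rescaling and 10 with read-based TPM. No paired analysis was possible because the 3 libraries form 1 group. Depth limits the members below 1 TPM, where 3 counts are worth up to 0.0555 TPM.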
